A study of Homo sapiens with 6 samples.

Results

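The heat shock chaperones examined here were 10 genes: HSPA1A, HSPA1B, HSPA8, HSPH1, DNAJB1, HSPB1, HSP90AA1, HSP90AB1, HSPD1 and HSPE1. They were found by Ensembl identifier, through the symbols of GENCODE release 29, among the 19655 genes listed in tables of 6 RNA-Seq libraries. All 10 were above the expression limit (a mean of at least 0.5 FPKM, the number of fragments for each kilobase of a gene relative to library size) that 12756 genes passed. The libraries were made from the established colorectal cancer cell line SW480 (human), into which lentivirus had brought either a nontargeting control hairpin, shNT, or one of the PCYT2 hairpins shPcyt2-1 and shPcyt2-2, with 2 libraries for each of the 3 groups. The shNT cells thus carried a hairpin too, and the study's methods describe puromycin selection of infected cells, not single clones. PCYT2 encodes the enzyme that makes CDP-ethanolamine for phosphatidylethanolamine synthesis, and the study asked what its loss does to these cells. No heat treatment was named for any group. Puromycin, which acts on translation, was part of the selection in the methods, and how long before RNA extraction it was withdrawn, if at all, is not given in the sources used here.

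Heat shock proteins bind unfolded or partly folded proteins and help them fold. HSP70 proteins hold short stretches of a client in cycles of ATP binding and hydrolysis, J-domain proteins start the cycle, exchange factors end it, and HSP90 takes over clients such as kinases and steroid receptors. The transcription factor HSF1 raises many of these genes after heat or proteotoxic stress, through repeats of the short unit GAA and its complement TTC in their promoters. Several of the genes are also transcribed at high levels in unstressed and in cancer cells.

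The stretches below hold matches to letters of the heat shock element in promoters of members that the results turn on, from RefSeq on GRCh38.p14, 5′ to 3′ on the strand of the gene. Capitals mark matches to GAANNTTC or TTCNNGAA (2 units, searched on both strands, each motif being its own complement) and their overlapping runs. HSPA1A and HSPA1B are shown because they are near-identical genes that moved together, HSPB1 because it too holds a single short match, and HSPA8, HSP90AA1, HSP90AB1 and HSPD1 because they hold longer runs.
HSPA1A, chr6:31815426-31815455 (plus strand): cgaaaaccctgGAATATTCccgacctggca
HSPA1B, chr6:31827593-31827680 (plus strand): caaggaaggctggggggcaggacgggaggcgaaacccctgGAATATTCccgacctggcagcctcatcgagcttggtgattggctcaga
HSPB1, chr7:76302451-76302538 (plus strand): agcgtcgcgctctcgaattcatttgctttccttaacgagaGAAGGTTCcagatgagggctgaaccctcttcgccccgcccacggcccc
HSPA8, chr11:123062171-123062199 (minus strand): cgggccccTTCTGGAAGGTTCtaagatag
HSP90AA1, chr14:102087104-102087133 (minus strand): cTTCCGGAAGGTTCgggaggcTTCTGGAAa
HSP90AB1, chr6:44247738-44247830 (plus strand): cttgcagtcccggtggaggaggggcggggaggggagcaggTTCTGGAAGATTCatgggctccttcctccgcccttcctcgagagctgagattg
HSPD1, chr2:197500062-197500090 (minus strand): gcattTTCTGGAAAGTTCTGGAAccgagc

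RefSeq listed 16 promoters for the 10 genes, and 8 of these, from 8 different genes, held a match to the 2-unit motif in the 250 bases before the start. Among all 35116 promoters, 11.6% held one. The longer motif of 3 units (GAANNTTCNNGAA or TTCNNGAANNTTC, which contains the shorter one) was in promoters of 4 members, HSPA8, HSP90AA1, HSP90AB1 and HSPD1, and in 0.441% of all promoters. The windows of HSPH1 and HSPE1 held no match. A match describes the letters only, and binding was not measured.

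PCYT2 was measured first, as a check on the labels. It was at 11.6 and 13.8 FPKM in the shNT libraries, 7.11 and 7.36 in the shPcyt2-1 libraries, and 6.71 and 6.18 in the shPcyt2-2 libraries. Each of the 4 knockdown libraries was lower than either shNT library, by -0.73 (shPcyt2-1, limma adjusted p = 0.00205) and -0.88 (shPcyt2-2, limma adjusted p = 0.00261) on the log2(FPKM + 1) scale on which every fold change below is given. The cells were epithelial by their defining markers: KRT8 was at 2734 to 3861 FPKM, EPCAM at 258 to 312 and CDH1 at 14.7 to 17.3. Of the intestinal markers, KRT20 and CEACAM5 were at most at 0.095 and 0.480 FPKM in any library, below the expression limit. Others passed it: VIL1 was at 38.8 to 44.7 FPKM, CDX2 at 9.88 to 16.9, CDX1 at 1.47 to 2.30 and LGALS4 at 0.573 to 1.77. Of the leukocyte, fibroblast and endothelial lists, PTPRC and COL3A1 were not listed in any library, and only CD68, LYZ and COL1A1 passed the limit.

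The 10 chaperones together made up 0.702% and 0.656% of all FPKM in the shNT libraries, 0.667% and 0.661% with shPcyt2-1, and 0.704% and 0.678% with shPcyt2-2. The share in shNT overlapped that of each hairpin, both shPcyt2-2 libraries lay above both shPcyt2-1 libraries, and single members moved in both directions. HSP90AB1 was the most abundant in each group. FPKM is a value per length, which allows levels of different genes to be compared. In shNT the order by mean FPKM was HSP90AB1 (579), HSPB1 (499), HSPA8 (452), HSP90AA1 (424), HSPD1 (349.6), HSPE1 (199), DNAJB1 (64.7), HSPH1 (35.2), HSPA1B (4.65) and HSPA1A (4.05). Of the neighbors in this order, only HSPA8 and HSP90AA1 had overlapping libraries. With shPcyt2-1, HSPB1 and HSP90AA1 came behind HSPA8 and HSPD1, and no neighbors overlapped. With shPcyt2-2, HSP90AA1 stood next to HSPB1 in overlapping ranges behind HSP90AB1, and HSPA8 and HSPD1 overlapped as well. The stress-inducible pair HSPA1A and HSPA1B was listed far below the constitutive HSPA8 in every library, with the limit that these copies share most of their sequence and reads that fit both may not have been counted in full.

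**Figure D1:**
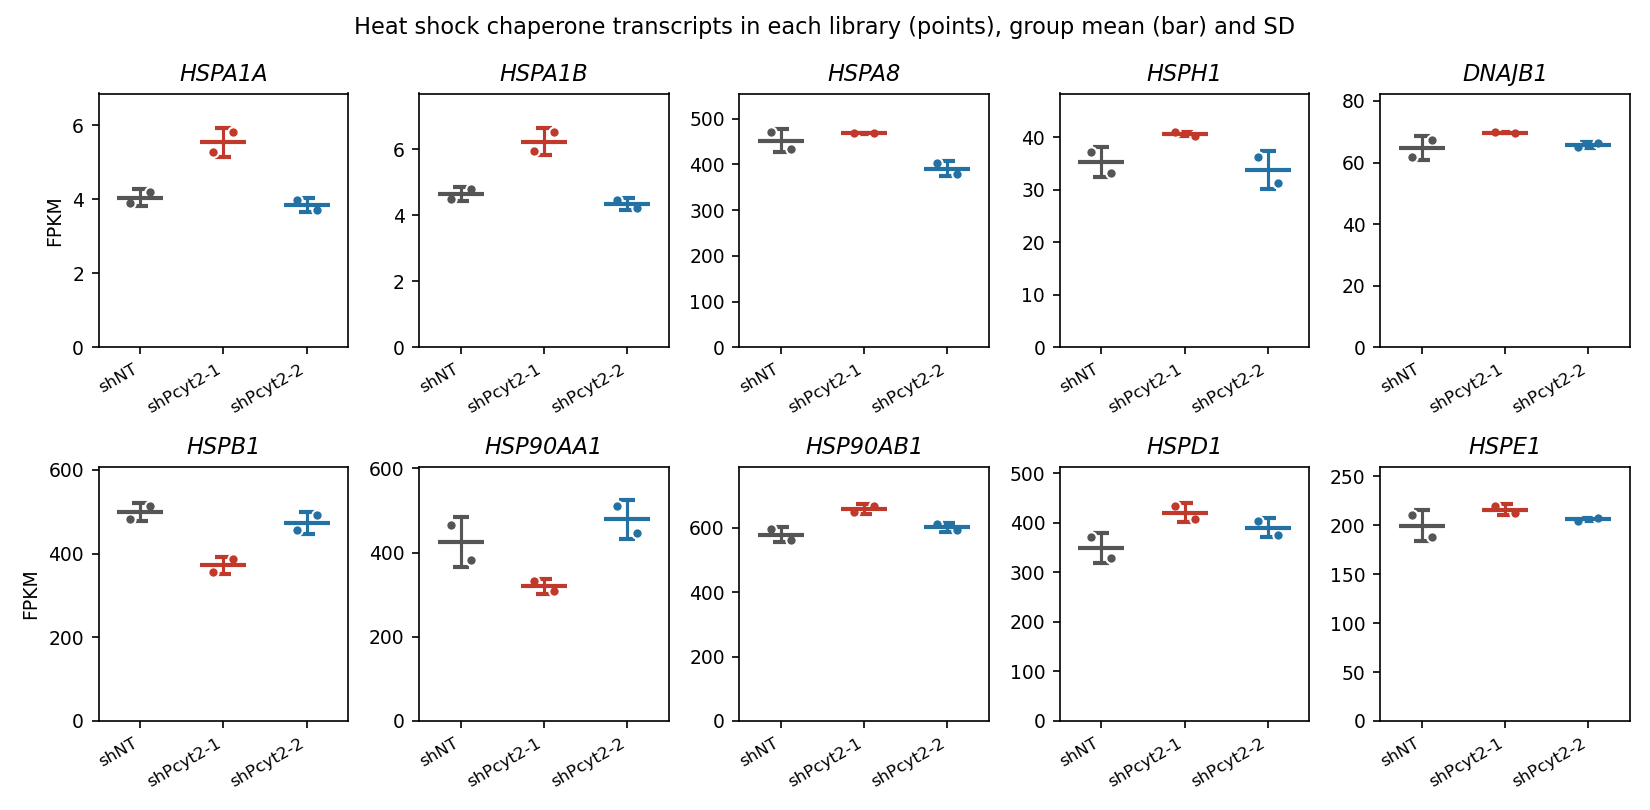
FPKM of each chaperone (vertical axes, 1 panel a gene, each from 0) in the 2 libraries of shNT, shPcyt2-1 and shPcyt2-2, with points for libraries, bars for group means and error bars for the SD. HSPB1 and HSP90AA1 are lowest with shPcyt2-1, where HSPA1A and HSPA1B are highest.

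With shPcyt2-1, 6 of the 10 chaperones differed from shNT. HSPA1A, HSPA1B, HSPD1 and HSP90AB1 were higher, and HSPB1 and HSP90AA1 were lower. Among all genes tested 26.7% passed the same threshold (an adjusted p from limma under 0.05, with adjustment across the 12756 genes), 16.5% higher and 10.1% lower, and among the 2163 genes with a mean of at least 30 FPKM, a level set after the values were seen and exceeded by 8 of the 10 members, 37.0% did (23.1% with shPcyt2-2 and 37.6% between the hairpins). HSPA1A and HSPA1B lie below that level, and as near-identical copies that may share reads they are not independent calls. The median log2 fold change was 0.15 over the 10 members and 0.067 over all genes tested. The median of the members was 0.072 with median-ratio scaling, which sets that of all genes to 0.00026, and 0.045 after adjustment for GC content and length. Both libraries lay on one side of both shNT libraries for 9 members, as they did for 69.0% of all genes. With median-ratio scaling of the libraries, HSPD1 (0.19, limma adjusted p = 0.115) and HSP90AB1 (0.11, limma adjusted p = 0.309) did not pass, and the split of all calls moved from 2109 higher and 1291 lower to 1422 higher and 1758 lower.

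With shPcyt2-2, 1 of the 10 chaperones differed from shNT: HSPA8, which was lower. The share of all genes tested that passed was 12.4%, of which 7.69 points were higher and 4.74 lower. The median log2 fold change was -0.016 over the members (-0.065 with median-ratio scaling) and 0.044 over all genes, and 3 members (HSPA1B, HSPA8 and HSPD1) had groups that did not overlap, against 57.5% of all genes. Without shNT replicate 1, HSPA8 did not pass (-0.15, limma adjusted p = 0.0972), and HSP90AA1 and HSPD1 passed as higher, so that the members called changed from 1 lower to 2 higher. Median-ratio scaling left HSPA8 as the member that passed and changed the split of all calls from 981 higher and 604 lower to 763 higher and 879 lower. The comparisons with shNT share its 2 libraries, so they are not independent of each other.

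The hairpins were then compared directly, which tests whether their effects differed. Here 5 of the 10 chaperones passed: HSP90AA1 and HSPB1 were higher with shPcyt2-2 than with shPcyt2-1, and HSPA1A, HSPA1B and HSPA8 were lower. Of all genes tested 27.1% passed, 12.9% higher and 14.2% lower. Among those with a mean of at least 30 FPKM, 37.6% passed. HSPA1A and HSPA1B, whose calls are not independent of each other, lie below that level. The medians were -0.12 over the members and -0.023 over all genes. The ranges of the hairpins did not overlap for any of the 10 members, which held for 67.3% of all genes. PCYT2 itself differed by -0.15 (limma adjusted p = 0.309), so a difference in knockdown was not detected with 2 libraries a group. Nothing in the labels says whether the libraries of a group came from separate cultures, so p-values measure the spread between these libraries, and in bulk RNA fewer expressing cells and less RNA per cell cannot be told apart.

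**Figure D2:**
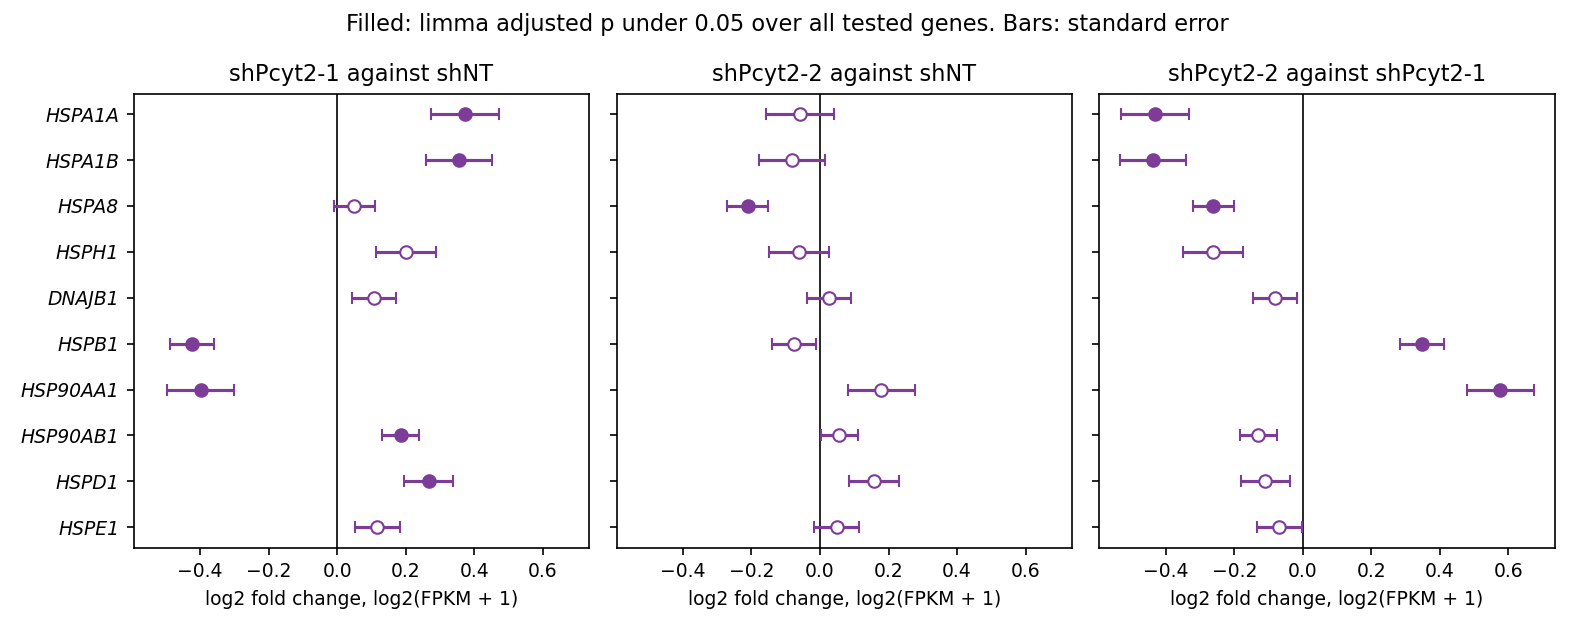
Log2 fold change (horizontal axes, on log2(FPKM + 1)) of each chaperone in the 3 comparisons, with standard errors, filled where the limma adjusted p was under 0.05. HSPB1 and HSP90AA1 lie left of 0 with shPcyt2-1 and right of 0 between the hairpins (0.35 and 0.58), and HSPA1A and HSPA1B do the opposite.

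The HSP70 proteins were taken first. HSPA1A (ENSG00000204389, GRCh38 chr6:31815464-31817946, plus strand) and HSPA1B (ENSG00000204388, chr6:31827735-31830255, plus strand) encode the stress-inducible HSP70 and are near-identical copies: their open reading frames of 1926 bases differed at 4 bases, and 87.8% of windows of 150 bases were the same in both. How the authors' counting split such reads is not given in the sources used here, so the value of each copy, and the level of their sum, is uncertain. HSPA1A was at 3.89 and 4.21 FPKM with shNT, 5.27 and 5.81 with shPcyt2-1, and 3.98 and 3.70 with shPcyt2-2. HSPA1B was at 4.50 and 4.80 FPKM with shNT, 5.94 and 6.52 with shPcyt2-1, and 4.47 and 4.21 with shPcyt2-2. The shPcyt2-1 libraries were the highest for both genes, and shNT and shPcyt2-2 overlapped for HSPA1A and lay next to each other for HSPA1B.

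HSPA1A rose 1.37-fold by the ratio of means with shPcyt2-1 (log2 fold change 0.37, SE 0.10, limma adjusted p = 0.0251), and HSPA1B 1.34-fold (0.36, SE 0.096, limma adjusted p = 0.0264). At these low levels a fold change on log2(FPKM + 1) understates the ratio. With shPcyt2-2 the values were -0.06 for HSPA1A (95% interval -0.28 to 0.17, limma adjusted p = 0.721) and -0.08 for HSPA1B (limma adjusted p = 0.602). Between the hairpins HSPA1A differed by -0.43 (limma adjusted p = 0.0126) and HSPA1B by -0.44 (limma adjusted p = 0.0105). The sum of both copies, whose level still depends on whether reads that fit both were counted, changed by 0.40 with shPcyt2-1 (limma adjusted p = 0.0135), by -0.08 with shPcyt2-2 (limma adjusted p = 0.588) and by -0.48 between the hairpins (limma adjusted p = 0.00528). With either shNT library or either shPcyt2-1 library left out, the shPcyt2-1 calls of HSPA1A (0.31 to 0.43) and HSPA1B (0.30 to 0.41) kept their direction and did not pass. The hairpin difference did not pass for either gene without shPcyt2-1 replicate 2 (-0.37 and -0.38) or shPcyt2-2 replicate 2 (-0.39 and -0.40).

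HSPA8 (ENSG00000109971, chr11:123057489-123063230, minus strand) encodes HSC70, the constitutive HSP70 of the cytosol. It was at 470.3 and 434 FPKM with shNT, 468 and 468 with shPcyt2-1, and 402 and 379 with shPcyt2-2. The shPcyt2-2 libraries were the lowest of the 6, and the shPcyt2-1 libraries lay within the range of shNT. The log2 fold change was -0.21 with shPcyt2-2 (SE 0.059, limma adjusted p = 0.0495), 0.05 with shPcyt2-1 (95% interval -0.08 to 0.18, limma adjusted p = 0.554) and -0.26 between the hairpins (limma adjusted p = 0.0121). The shPcyt2-2 call sat at the threshold and passed in 6 of 15 alternatives, among them neither of the fits without a shPcyt2-2 library (-0.25 and -0.17). The hairpin difference did not pass without shPcyt2-1 replicate 1 or 2 (-0.26 in each case) or shPcyt2-2 replicate 2 (-0.22).

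HSPA8 was 56.1 and 48.2 times the summed HSPA1A and HSPA1B in the shNT libraries, 41.7 and 38.0 times with shPcyt2-1, and 47.6 and 47.8 times with shPcyt2-2. The ratio was lowest in the libraries in which the inducible copies were highest, and its size carries the same uncertainty. HSPA6, which is close to silent without stress, was at 0.172 to 0.463 FPKM over the 6 libraries and below the expression limit.

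HSPH1 (ENSG00000120694, chr13:31134974-31162388, minus strand) encodes HSP105, an HSP110-class exchange factor of HSP70. It was at 37.2 and 33.2 FPKM with shNT, 40.9 and 40.3 with shPcyt2-1, and 36.3 and 31.2 with shPcyt2-2. The highest values were those of shPcyt2-1, and shNT and shPcyt2-2 overlapped. No comparison of HSPH1 passed: the log2 fold change was 0.20 with shPcyt2-1 (95% interval 0.0050 to 0.40, limma adjusted p = 0.115), -0.06 with shPcyt2-2 (limma adjusted p = 0.674) and -0.26 between the hairpins (limma adjusted p = 0.0525). After adjustment for GC content and length these values of HSPH1 were 0.010, -0.26 and -0.27 (limma adjusted p = 0.896, 0.0161 and 0.00485), so that the last 2 passed. The value with shPcyt2-1 was 0.12 without shNT replicate 2. The hairpin difference of HSPH1 passed in 6 of 15 alternatives. DNAJB1 (HSP40, ENSG00000132002, chr19:14514770-14529770, minus strand), the J-domain partner of HSP70 that HSF1 induces strongly after heat, was at 61.9 and 67.4 FPKM with shNT, 69.8 and 69.6 with shPcyt2-1, and 65.2 and 66.5 with shPcyt2-2. Its values were 0.11 (95% interval -0.04 to 0.25, limma adjusted p = 0.232), 0.03 (95% interval -0.12 to 0.17, limma adjusted p = 0.809) and -0.08 (limma adjusted p = 0.375) in the same order.

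HSPB1 (ENSG00000106211, chr7:76302544-76304295, plus strand) encodes HSP27, a small heat shock protein that forms oligomers and holds unfolded clients without ATP. It was at 484 and 514 FPKM with shNT, 357 and 387 with shPcyt2-1, and 455 and 492 with shPcyt2-2. Both shPcyt2-1 libraries were below the other 4, and shNT and shPcyt2-2 overlapped. It fell to 372 ± 21.2 FPKM (SD, n = 2) with shPcyt2-1 from 499 ± 21.8 (SD, n = 2) with shNT, a log2 fold change of -0.42 (SE 0.065, limma adjusted p = 0.0031) that passed in 15 of 15 alternatives, between -0.50 and -0.28. With shPcyt2-2 it was -0.08 (95% interval -0.22 to 0.07, limma adjusted p = 0.462), and shPcyt2-2 exceeded shPcyt2-1 by 0.35 (limma adjusted p = 0.00509), which did not pass without shPcyt2-2 replicate 2 (0.29). Of the 8 other small heat shock protein genes listed, 7 were below the expression limit, CRYAB (0.033 to 0.177 FPKM) and HSPB8 (0.047 to 0.096 FPKM) among them. HSPB11, which encodes a transport protein of cilia despite its name, was the exception at 9.62 to 16.1 FPKM, and it was higher with both hairpins (0.40 and 0.48, limma adjusted p = 0.0414 and 0.0376). Neither call of HSPB11 passed with median-ratio scaling (0.33 and 0.43) or after adjustment for GC content and length (0.16 and 0.23), nor without shNT replicate 1 (0.21 and 0.29).

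HSP90 of the cytosol comes from a pair of genes, the stress-responsive HSP90AA1 (ENSG00000080824, chr14:102080738-102139699, minus strand) and the constitutive HSP90AB1 (ENSG00000096384, chr6:44246166-44253888, plus strand). HSP90AA1 was at 466 and 382 FPKM with shNT, 333 and 308 with shPcyt2-1, and 511 and 447 with shPcyt2-2. The shPcyt2-1 libraries were the lowest of the 6, and shNT and shPcyt2-2 overlapped. The log2 fold change was -0.40 with shPcyt2-1 (SE 0.098, limma adjusted p = 0.0187) and 0.18 with shPcyt2-2 (95% interval -0.04 to 0.40, limma adjusted p = 0.248), and without shNT replicate 1 the latter was 0.32 and passed (limma adjusted p = 0.043). Between the hairpins it was 0.58 (limma adjusted p = 0.00336), the widest difference among the 10 members, and this passed in 15 of 15 alternatives. The fall with shPcyt2-1 did not pass without shNT replicate 1 (-0.26, limma adjusted p = 0.0622) or without shPcyt2-1 replicate 2 (-0.34, limma adjusted p = 0.066).

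HSP90AB1 was at 596 and 562 FPKM with shNT, 649 and 669 with shPcyt2-1, and 613 and 592 with shPcyt2-2. Here the shPcyt2-1 libraries were the highest, opposite to HSP90AA1. The log2 fold change was 0.19 with shPcyt2-1 (SE 0.056, limma adjusted p = 0.0342), a call that passed in 5 of 15 alternatives and in 1 of the 6 fits without a library (without shNT replicate 1, 0.23). With shPcyt2-2 it was 0.06 (95% interval -0.07 to 0.18, limma adjusted p = 0.512), and between the hairpins -0.13 (limma adjusted p = 0.106, passed in 3 of 15 alternatives). The ratio of HSP90AA1 to HSP90AB1 was 0.782 and 0.680 in the shNT libraries, 0.513 and 0.460 with shPcyt2-1, and 0.835 and 0.754 with shPcyt2-2. The ratio was lowest in both shPcyt2-1 libraries, while the summed FPKM of the pair, at 1063 and 945, 982 and 977, and 1124 and 1039, overlapped between shNT and each hairpin.

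HSPD1 (ENSG00000144381, chr2:197486581-197516737, minus strand) and HSPE1 (ENSG00000115541, chr2:197499994-197503457, plus strand) encode HSP60 and HSP10, the chamber and the lid of the chaperonin in the mitochondrial matrix. The genes lie head to head and their annotated spans overlap, and HSPE1 also shares its position with a readthrough gene, so reads near their starts are uncertain. HSPD1 was at 371 and 328 FPKM with shNT, 434 and 407 with shPcyt2-1, and 403 and 376 with shPcyt2-2. Each of the 4 knockdown libraries exceeded both of shNT. It rose by 0.27 with shPcyt2-1 (SE 0.077, limma adjusted p = 0.0256) and was 0.16 higher with shPcyt2-2 (limma adjusted p = 0.17; 0.25 and passed without shNT replicate 1, limma adjusted p = 0.0425), with -0.11 between the hairpins (limma adjusted p = 0.287). The rise with shPcyt2-1 passed in 9 of 15 alternatives and not without shNT replicate 2 (0.18) or shPcyt2-1 replicate 1 (0.22).

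HSPE1 was at 211 and 188 FPKM with shNT, 220.1 and 212 with shPcyt2-1, and 205 and 207 with shPcyt2-2. The shPcyt2-2 libraries lay within the range of shNT. Its log2 fold changes were 0.12 with shPcyt2-1 (95% interval -0.03 to 0.26, limma adjusted p = 0.205) and 0.05 with shPcyt2-2 (95% interval -0.10 to 0.20, limma adjusted p = 0.647). The value with shPcyt2-1 was 0.20 and passed without shNT replicate 1 (limma adjusted p = 0.0349), and was 0.036 without shNT replicate 2. The ratio of HSPD1 to HSPE1 was 1.76 and 1.74 with shNT, 1.97 and 1.92 with shPcyt2-1, and 1.97 and 1.81 with shPcyt2-2, above both shNT libraries in all 4 knockdown libraries. HSPB1 over HSPD1, a pair that moved in opposite directions with shPcyt2-1, as other pairs of members did, was 1.30 and 1.57 with shNT, 0.822 and 0.951 with shPcyt2-1, and 1.13 and 1.31 with shPcyt2-2.

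**Figure D3:**
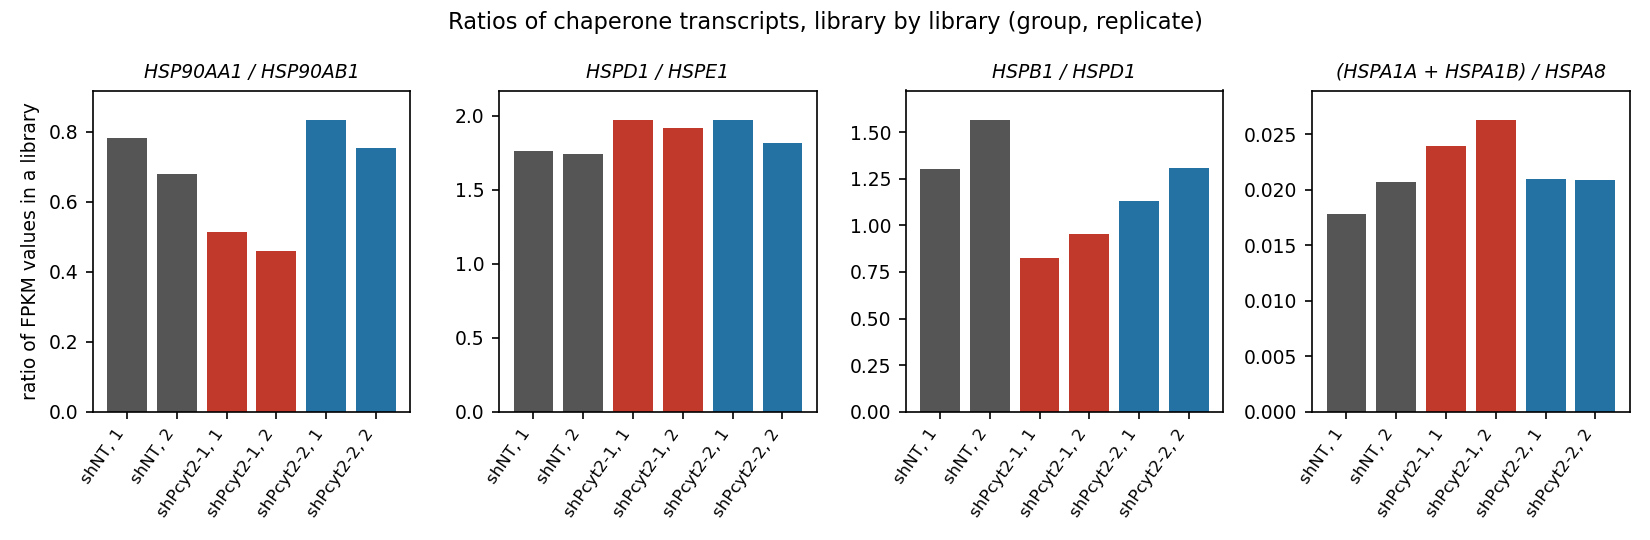
Ratios of FPKM values within each of the 6 libraries (1 bar a library, axes from 0, groups by color). The ratio of HSP90AA1 to HSP90AB1 is at 0.513 and 0.460 with shPcyt2-1 and at 0.680 to 0.835 in the other libraries.

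Of the factors that control these genes, HSF1 was at 27.3 and 29.9 FPKM with shNT, 28.8 and 36.9 with shPcyt2-1, and 20.2 and 19.8 with shPcyt2-2. The shPcyt2-2 libraries were the lowest. HSF1 fell by 0.49 with shPcyt2-2 (limma adjusted p = 0.0234), was at 0.18 with shPcyt2-1 (limma adjusted p = 0.232) and differed by -0.68 between the hairpins (limma adjusted p = 0.00258). The value with shPcyt2-1 rested on 1 library: with shPcyt2-1 replicate 2 left out it was 0.011, and with replicate 1 left out 0.36. It was 0.32 and passed after adjustment for GC content and length (limma adjusted p = 0.0448). The fall of HSF1 with shPcyt2-2 did not pass without shNT replicate 2 (-0.43) or without either shPcyt2-2 library (-0.51 and -0.48), while the hairpin difference passed in 15 of 15 alternatives. HSF2, a related factor, was at 5.73 to 8.28 FPKM and passed in no comparison. Of the 7 HSF genes and regulators, HSBP1, which encodes a binding partner of HSF1, was the other gene that passed, higher with shPcyt2-2 (0.31, limma adjusted p = 0.0465), though not past the threshold with median-ratio scaling.

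Partners of HSP70 were then counted. The counts of this and the following lists are read beside the shares of all genes tested that passed, 16.5% higher and 10.1% lower with shPcyt2-1, 7.69% and 4.74% with shPcyt2-2, and 12.9% and 14.2% between the hairpins, and their medians beside 0.067, 0.044 and -0.023. A count near those shares is not a result about the list. Of 17 J-domain genes, 8 rose and 0 fell with shPcyt2-1, 2 rose and 1 fell with shPcyt2-2, and between the hairpins 1 was higher and 5 lower with shPcyt2-2. Their median log2 fold changes were 0.25, 0.0096 and -0.18, and with median-ratio scaling or values rescaled to a common sum 4 rose and 0 fell with shPcyt2-1. With median-ratio scaling the median with shPcyt2-2 was -0.041. The median with shPcyt2-1 was 0.17 under that scaling. Once GC content and length were adjusted for, 3 rose and 3 fell with shPcyt2-1, with a median of 0.12. DNAJC9, a J-domain protein that also binds histones, was at 10.4 and 11.8 FPKM with shNT, 19.2 and 16.9 with shPcyt2-1, and 11.7 and 10.7 with shPcyt2-2 (0.65 with shPcyt2-1, limma adjusted p = 0.00285). DNAJB6, which holds back aggregation of polyglutamine proteins, was higher with shPcyt2-1 (0.25, limma adjusted p = 0.0419) and differed by -0.52 between the hairpins (limma adjusted p = 0.00184). DNAJB5 rose with both (0.60 and 0.43, limma adjusted p = 0.0047 and 0.0312), and DNAJB2 fell with shPcyt2-2 (-0.58, limma adjusted p = 0.0143). DNAJA1, the most abundant J-domain gene at 55.4 to 62.7 FPKM, had values of 0.034 and 0.0095.

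Other HSP70 and HSP110 genes were 9, of which 6 passed the expression limit. HSPA13, an HSP70 of the microsome, rose with both hairpins (0.40 and 0.55, limma adjusted p = 0.035 and 0.0216), HSPA12A (0.27) and HSPA14 rose with shPcyt2-1, and none fell. With median-ratio scaling 0 of these 6 passed with shPcyt2-1 in limma (3 did at an unadjusted p under 0.05). HSPA4, the most abundant, was at 51.8 to 64.4 FPKM and passed in no comparison. Among 11 exchange and client handover genes, 2 rose and 1 fell with shPcyt2-1 and 1 rose and 1 fell with shPcyt2-2, and with median-ratio scaling 1 rose and 2 fell with each. STIP1 (HOP), which links HSP70 to HSP90, was higher with shPcyt2-1 (0.20, limma adjusted p = 0.0288, not passed with median-ratio scaling), and STUB1 (CHIP), the ubiquitin ligase that binds both chaperones, was lower (-0.32, limma adjusted p = 0.0179). HSPBP1, an exchange factor of HSP70, fell with shPcyt2-2 (-0.47, limma adjusted p = 0.00953).

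Of 18 HSP90 co-chaperones, 2 rose with shPcyt2-1 and 3 with shPcyt2-2, and none fell with either. PTGES3 (p23), which binds the closed form of HSP90, was at 177 and 155 FPKM with shNT, 205 and 212 with shPcyt2-1, and 209.5 and 202 with shPcyt2-2. It rose in both comparisons (0.33 and 0.31, limma adjusted p = 0.011 and 0.0257), and all 4 knockdown libraries were above shNT, but neither call passed with median-ratio scaling. PPID (cyclophilin 40) rose with shPcyt2-1 (0.46, limma adjusted p = 0.00383), and CDC37L1 rose with shPcyt2-2 (0.62, limma adjusted p = 0.00905) and was 0.77 higher with shPcyt2-2 than with shPcyt2-1 (limma adjusted p = 0.000986). The medians of the list were 0.093 and -0.00037 as fitted, 0.028 and -0.047 with median-ratio scaling, 0.0052 and -0.044 after adjustment for GC content and length, and 0.096 and 0.0043 with values rescaled to a common sum. With median-ratio scaling 1 rose and 0 fell with shPcyt2-1, and 2 rose and 2 fell with shPcyt2-2.

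The chaperonin CCT folds actin and tubulin in the cytosol, with prefoldin as its feeder. Of these 14 genes 8 rose with shPcyt2-1 and 0 fell, and 0 passed with shPcyt2-2 in limma (2 did at an unadjusted p under 0.05). CCT7, the most abundant, was at 371 and 360.4 FPKM with shNT, 417 and 405 with shPcyt2-1, and 358 and 355 with shPcyt2-2. The shPcyt2-1 libraries were the highest (0.17, limma adjusted p = 0.0392), and the hairpins differed by -0.20 (limma adjusted p = 0.0174). The rule named VBP1 (0.37, limma adjusted p = 0.02) and CCT2 (0.30, limma adjusted p = 0.0191) as the largest rises, and PFDN4 was higher with shPcyt2-2 than with shPcyt2-1 (0.74, limma adjusted p = 0.00731). The 8 rises depended on the scaling: with median-ratio scaling 1 of the 14 was higher and 1 lower with shPcyt2-1, and with GC content and length adjusted for 0 were higher and 1 lower. The median of the list was 0.18 as first fitted, 0.10 under that scaling and 0.068 after the adjustment.

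Of 15 other mitochondrial chaperones and proteases, 1 rose and 5 fell with shPcyt2-1, 2 rose and 0 fell with shPcyt2-2, and 7 were higher and 1 lower with shPcyt2-2 than with shPcyt2-1 (7 and 4 after adjustment for GC content and length). The 2 of 15 with shPcyt2-2 lie near the 12.4% of all genes that passed there. TRAP1, the HSP90 of mitochondria, was at 211 and 218 FPKM with shNT, 176 and 187 with shPcyt2-1, and 204 and 214 with shPcyt2-2. It was lowest in both shPcyt2-1 libraries (-0.24, limma adjusted p = 0.0172), where HSPD1 was highest. HSCB, a J-domain protein of iron-sulfur cluster assembly, fell by 0.53 with shPcyt2-1 (limma adjusted p = 0.00963), and the protease gene YME1L1 rose (0.42, limma adjusted p = 0.00705).

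In the endoplasmic reticulum, 6 of 14 chaperone genes rose and 1 fell with each hairpin, and with median-ratio scaling 1 rose and 1 fell with shPcyt2-1 and 5 rose and 1 fell with shPcyt2-2. HSP90B1 (GRP94), the HSP90 of this compartment, was at 125 and 106 FPKM with shNT, 77.3 and 75.8 with shPcyt2-1, and 175 and 155 with shPcyt2-2. The groups were apart, with shPcyt2-1 below and shPcyt2-2 above shNT. It fell by 0.59 with shPcyt2-1 (limma adjusted p = 0.00278), rose by 0.50 with shPcyt2-2 (limma adjusted p = 0.0106) and differed by 1.09 between the hairpins (limma adjusted p = 9.88e-05). HSPA5 (BiP), the HSP70 of the same compartment, was at 97.2 and 95.3 FPKM with shNT, 102 and 102 with shPcyt2-1, and 131 and 121 with shPcyt2-2. It rose with shPcyt2-2 (0.38, limma adjusted p = 0.00802) and was at 0.08 with shPcyt2-1 (limma adjusted p = 0.373). DNAJB9, a J-domain partner of HSPA5, rose with both (0.46 and 0.60, limma adjusted p = 0.0322 and 0.0226). Its shNT libraries lay apart, at 4.77 and 3.36 FPKM, so the size of both rises depends on the shNT library. SERPINH1 (HSP47), the collagen chaperone, rose with shPcyt2-1 (0.37, limma adjusted p = 0.00887).

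HSP90 transcripts of 3 compartments thus lay lowest in the shPcyt2-1 libraries for HSP90AA1, HSP90B1 and TRAP1, and highest there for HSP90AB1. This grouping was made after the values were seen. Among 7 ubiquitin and aggregate handling genes, PSMD14 (0.38, limma adjusted p = 0.00456) and UBQLN2 (0.31, limma adjusted p = 0.0361) rose with shPcyt2-1, and UBB, the most abundant at 524 to 572 FPKM, passed in no comparison. None passed with shPcyt2-2 in limma (2 did at an unadjusted p under 0.05). With median-ratio scaling 1 of the 7 rose with shPcyt2-1 and 2 fell with shPcyt2-2, and the latter count was also 2 after adjustment for GC content and length.

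Markers of other changes in the cells were read beside the chaperones. Of 8 immediate early genes, which respond within minutes to handling and growth factors, EGR1 fell with shPcyt2-1 (-0.40, limma adjusted p = 0.00598) and none passed with shPcyt2-2 in limma (2 did at an unadjusted p under 0.05). Their summed FPKM was 259 and 276 with shNT, 230.0 and 253 with shPcyt2-1, and 227 and 252 with shPcyt2-2. Of 9 colorectal epithelium markers tested, CDX2 (-0.65, limma adjusted p = 0.00138) and LGALS4 (-0.58, limma adjusted p = 0.0162) fell with shPcyt2-1, and KRT8 (-0.41), KRT18 (-0.45) and KRT19 (-0.44) fell with shPcyt2-2. The 11 markers summed to 8214 and 8773 FPKM with shNT, 8434 and 8527 with shPcyt2-1, and 6261 and 6557 with shPcyt2-2, so the keratins moved with the shPcyt2-2 group, in which HSPA8 and HSF1 were lowest. The part of either in the chaperone results was not tested. Leukocyte markers summed to 18.0 to 24.5 FPKM, with CD68 the most abundant, fibroblast markers to 1.45 to 2.47 FPKM, with COL1A1 the most abundant, and endothelial markers to 0.513 to 0.769 FPKM, with CDH5 the most abundant. Of these only CD68, LYZ and COL1A1 were tested, and none of them passed in any comparison. The endothelial markers lay below the expression limit, so whether they changed was not tested. After adjustment for GC content and length COL1A1 passed as higher with shPcyt2-2 (0.42).

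Across the 6 libraries, the genes outside the 10 chaperones whose log2(FPKM + 1) followed HSP90AA1 most closely were JMY (Pearson's r = 0.9989) and TMF1 (r = 0.9975), and those for HSPA1B and HSPA1A, with the other copy left out as a member, were BMP2 (r = 0.9981 and 0.9958) and TRPV6 (r = 0.9964 and 0.9984). These values describe likeness over 6 libraries of 3 groups. They carry little information one by one, since 128 such genes had an r over 0.95 with HSP90AA1, 271 with HSPA1B and 256 with HSPA1A.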

How the data were processed

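The authors extracted total RNA with TRIzol, and libraries were made and sequenced by a service company. Per the labels, 2 library kits were used, without a statement of which libraries each served. The submitters' processing notes name the builds GRCm38, mm10 and GRCh38. The aligner, counter and annotation are not given in the sources used here. The authors deposited 1 table per library with a value per Ensembl identifier, read here as FPKM since the values are not whole and sum to a similar total in each library (TPM over part of the genes was not excluded). Genes at 0 are not listed. The package that the study's methods name for its tests works on counts, which FPKM are not.

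Repeated identifiers (115 of 21539) were added up and sets of identifiers that shared all values (1045) became 1 gene each, among them the 5 identifiers of each of HSPA1A and HSPA1B, which left 19655 genes. Names came from GENCODE release 29 (GRCh38) and promoters from RefSeq (GRCh38.p14). The 12756 genes with a mean of at least 0.5 FPKM were fitted on log2(FPKM + 1) in limma 3.58.1 (R 4.3.3) with a trend of variance on mean, all 6 libraries in 3 groups, Benjamini-Hochberg adjustment and a threshold of 0.05. The fit was tested on simulated data, for which no values are given here. Alternatives changed the pseudocount (0.1), the expression limit, the scaling, the replicate number as a block, the groups in the fit, the variance trend, the handling of repeated rows, an adjustment for GC content and length, and the libraries used. Each library was left out in turn, so that 1 group kept a lone library assumed to vary like the others. Beside the 10 chaperones, PCYT2, HSF1, HSF2 and HSPA5, the text names up to 2 rises and 2 falls per list and comparison, each list's most abundant gene, and the nearest genes by correlation of the 3 chaperones with the widest spread of group means. The other genes it names (HSPA14, HSPA6, CRYAB, HSPB8 and cell type markers) were chosen after their values were seen, except markers from the lists. The members and lists were chosen with earlier results of these data known. How many reads lie behind a value is unknown, and 2 libraries a group limit the precision. Figures were drawn with matplotlib 3.10.9.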

Additional observations from a re-analysis of the deposited data

Results flagged for a closer look

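Among the genes that the rule of the methods names, results were marked for a closer look where the effect of shPcyt2-2 differed from that of shPcyt2-1 in a direct test of the difference between the hairpins (limma adjusted p under 0.05). This held for 42 of the 71 named genes tested, and other genes of the lists that passed the same test are not given here. Among the chaperones the log2 differences, shPcyt2-2 minus shPcyt2-1, were 0.58 for HSP90AA1, 0.35 for HSPB1, -0.43 for HSPA1A, -0.44 for HSPA1B and -0.26 for HSPA8.

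Of the control and endoplasmic reticulum genes, the difference was -0.68 for HSF1, 0.31 for HSPA5, 1.09 for HSP90B1, 0.33 for PDIA4, -0.24 for CALR, -0.35 for SDF2L1 and -0.36 for HYOU1. Among partners of HSP70 it was -0.64 for DNAJC9, -0.44 for DNAJB2, 0.43 for DNAJC2, -0.52 for DNAJB6, -0.19 for STIP1, -0.61 for HSPBP1, 0.29 for ST13 and -0.33 for BAG1. DNAJC2 was at 14.6 and 11.45 FPKM with shPcyt2-1 and 18.3 and 17.2 with shPcyt2-2. The size of its difference thus depends on the shPcyt2-1 library. Among HSP90 co-chaperones and chaperonin genes the difference was -0.29 for PPID, 0.77 for CDC37L1, -0.41 for UNC45A, -0.20 for CCT7, 0.74 for PFDN4, -0.25 for CCT4 and -0.23 for CCT5. Mitochondrial genes differed by -0.34 (YME1L1), 0.50 (HSCB), 0.26 (HTRA2), 0.20 (TRAP1) and 0.42 (GRPEL2), and aggregate handling genes by -0.59 (PSMD14) and -0.23 (VCP). Immediate early genes differed by 0.23 (EGR1), -0.25 (IER2) and 0.47 (FOS). With median-ratio scaling 1 immediate early gene was higher and 0 lower. These counts were 2 and 0 with values rescaled to a common sum, and 1 and 1 after adjustment for GC content and length. Epithelial markers differed by 0.60 (CDX2), 0.36 (CDX1), -0.36 (KRT8), -0.47 (KRT18) and -0.50 (KRT19). PCYT2 itself did not pass in this comparison (-0.15, limma adjusted p = 0.309), and the causes of these differences were not tested.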

How the results depend on the processing

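Of 453 values of the chaperones under alternatives, 379 kept their direction and side of the threshold, 48 lost the threshold, 13 gained it and 13 turned sign. Over the 1893 values tallied for named genes, the chaperones among them, these counts were 1463, 397, 14 and 19. This tally does not hold every named gene in every comparison under every alternative. Without the expression limit, which adds low genes to the fit, 1844 genes passed with shPcyt2-1 and 124 with shPcyt2-2. With the limit these counts were 3400 and 1585. Without it 1 chaperone (HSPB1) passed with shPcyt2-1 and 0 with shPcyt2-2. Without a variance trend 1027 genes passed with shPcyt2-2. The shPcyt2-2 count of 1 chaperone became 0 in limma with values rescaled to a common sum, with 2 groups in the fit or without the trend, and 2 after adjustment for GC content and length. With each library left out in turn, 1147 to 3256 genes and 2 to 5 chaperones passed with shPcyt2-1, 125 to 1893 genes and 0 to 2 chaperones with shPcyt2-2 (2 higher, HSP90AA1 and HSPD1, and 0 lower without shNT replicate 1), and 1662 to 3785 genes and 1 to 7 chaperones between the hairpins. The lowest chaperone counts came without shNT replicate 2 or either shPcyt2-1 library (2 each, shPcyt2-1) and, between the hairpins, without shPcyt2-1 replicate 2 (2) or shPcyt2-2 replicate 2 (1).

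Deviations of same-numbered libraries from their group means correlated at 0.0027 (shNT and shPcyt2-1), 0.0619 (shNT and shPcyt2-2) and 0.191 (the hairpins). These values do not settle whether the replicate numbers pair the libraries. Without a block 3400, 1585 and 3463 genes passed in the 3 comparisons. With the number as a replicate block, 3884, 2029 and 3869 genes and 6, 1 and 6 chaperones passed in the 3 comparisons, HSPH1 being added between the hairpins, and no other call of a chaperone changed.

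Sign changes were seen in small values. With shPcyt2-1, HSPA8 was -0.030 with median-ratio scaling, -0.075 after adjustment for GC content and length, and -0.0072 (without shNT replicate 2) to 0.11 with each library left out. HSPE1 was -0.0082 after that adjustment, and HSPA5 was -0.0035 and -0.044 under the same scaling and adjustment. With shPcyt2-2, median-ratio scaling gave -0.027 for DNAJB1 and -0.0055 for HSPE1, and the adjustment gave 0.029 for HSPB1, -0.029 for HSP90AB1, -0.032 for HSPE1 and -0.056 for HSF2. With each library left out, shPcyt2-2 values ran from -0.17 to 0.044 for HSPH1 (positive without shNT replicate 1, 0.019, or shPcyt2-2 replicate 2), from -0.033 (without shNT replicate 1) to 0.087 for DNAJB1, from -0.033 (without shNT replicate 2) to 0.13 for HSPE1, and from -0.045 (without shPcyt2-2 replicate 1, and -0.029 without shNT replicate 2) to 0.30 for HSF2. Between the hairpins HSF2 ran from -0.27 to 0.070 (without shPcyt2-2 replicate 2). The causes were not tested.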
